A study of Mus musculus with 4 samples.

Results

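Dync1h1 encodes the heavy chain of cytoplasmic dynein, and the RNA of this gene carried 192 listed binding peaks, 76 of SRSF1 and 116 of SRSF2, of 107319 peaks in both lists. The peaks came from CLIP-seq of mouse embryonic fibroblasts (MEFs), in which a protein is crosslinked to RNA with ultraviolet light and precipitated, and the RNA fragments that come with it are sequenced. The SRSF1 library came from MEFs with tetracycline-repressible SRSF1 (also called SF2/ASF), and the SRSF2 library from MEFs with tetracycline-repressible SRSF2 (SC35). Both lines were grown without tetracycline, the drug that represses the protein, and both precipitations used an antibody to an HA tag. No siRNA is named for these 2 samples. The SRSF1 libraries made after a control siRNA or an siRNA to SRSF2 were not analysed here. The sources used here do not say whether either line is a single clone. Each protein has its own line and 1 library, so protein, line and library cannot be told apart, and the values have no replicate error and no test.

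Cytoplasmic dynein is the motor that carries cargo along microtubules toward their minus ends, and it also acts in positioning nuclei and spindles. Its heavy chain holds the ring of AAA modules that hydrolyses ATP, the stalk that touches the microtubule, and the tail onto which the intermediate, light intermediate and light chains assemble. The protein is among the largest in the cell, and its messenger RNA is joined from many exons. SR proteins such as SRSF1 and SRSF2, named for their domain rich in arginine and serine, bind short stretches of RNA, many of them in exons, and help the splicing machinery to recognise nearby splice sites.

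The members were chosen by the name of each peak, which for Dync1h1 gives the RefSeq transcript NM_030238. All of them lay on the plus strand of chromosome 12, between 111839714 and 111905034 on mm9, a span of 65321 nt. No peak of another transcript lay within that span on either strand. The gene itself was picked from earlier results because it had the most peaks among 2155 genes with a symbol; the next gene had 144. Those numbers are therefore a description. Among all 12087 host units of the lists, most of which have no gene name, 7 had more peaks. SRSF1 made up 39.6% of the Dync1h1 peaks (exact 95% interval 32.6 to 46.9), where it made up 42.8% of the other peaks on chromosome 12 (41.2 to 44.3) and 47.5% of all peaks (47.2 to 47.8). The interval includes the value of the rest of the chromosome and ends just below that of both lists. Intervals here cover counting error only. Read depth and the amount of Dync1h1 RNA are unknown, so more RNA and more binding per RNA cannot be told apart.

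The peaks of both proteins were unevenly spread along the RNA, in the same places. Positions below are in kb from the first listed peak, which is the 5′ end of the listed span. The first 5 kb held 1 SRSF1 and 3 SRSF2 peaks, and the next 5 kb held none. From 10 to 15 kb there were 2 SRSF1 and 7 SRSF2 peaks. The numbers were highest between 15 and 30 kb, with 10 and 15 peaks of SRSF1 and SRSF2 at 15 to 20 kb, 8 and 12 at 20 to 25 kb, and 16 and 23 at 25 to 30 kb. From 30 kb to the 3′ end no 5 kb window held more than 7 SRSF1 or 11 SRSF2 peaks, and none held fewer than 4 of either. Over the 13 windows, SRSF1 and SRSF2 peak numbers gave a Spearman rho of 0.90. This is a description: windows are not replicates, and they share the gene, its RNA and its exons. With the span cut into 4 equal segments, the second one (16.3 to 32.7 kb) held 43.4% of the SRSF1 peaks and 43.1% of the SRSF2 peaks.

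**Figure D1:**
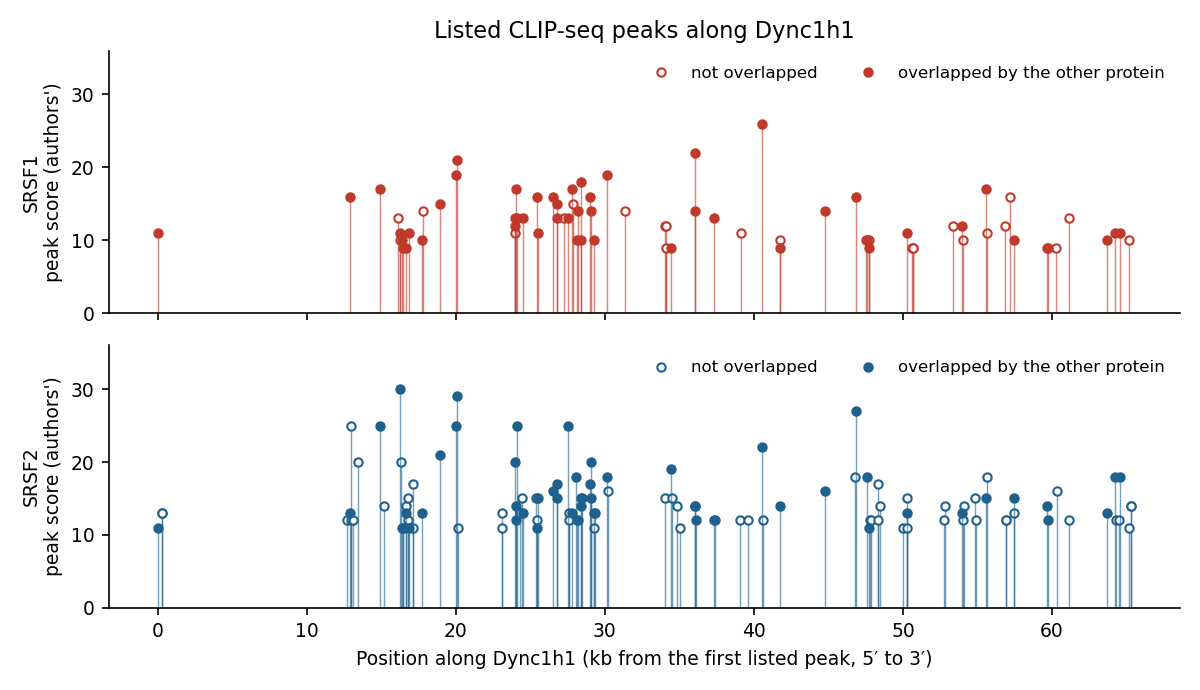
Each listed SRSF1 peak (top) and SRSF2 peak (bottom) of Dync1h1, placed by its midpoint in kb from the first listed peak (x axis) and by the authors' score (y axis, no unit given). Filled points are overlapped by a peak of the other protein. The scores run from 9 to 26 for SRSF1 and from 11 to 30 for SRSF2, and the stretch after the first few peaks is empty in both.

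**Figure D2:**
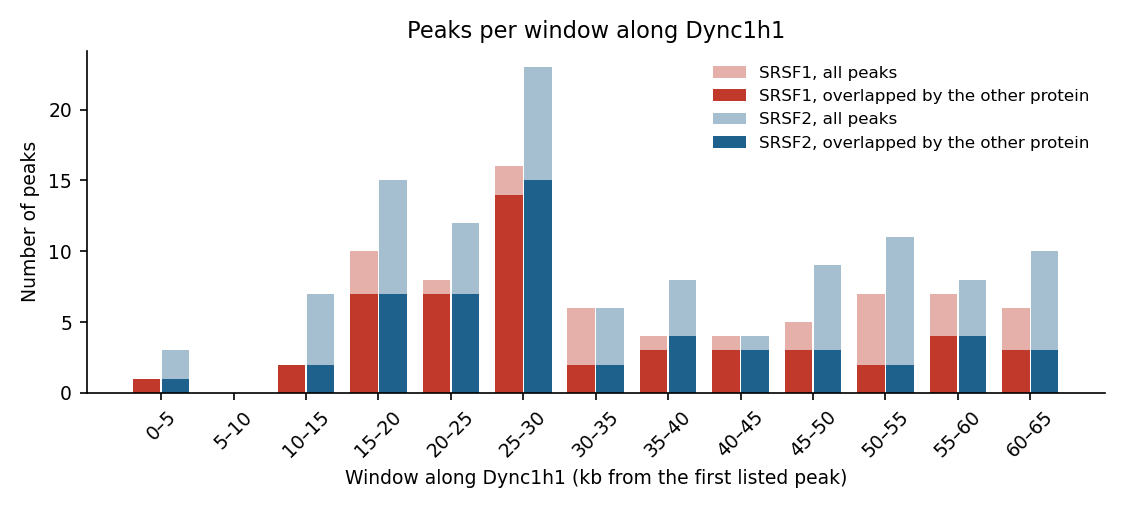
Number of SRSF1 peaks (left bar of each pair) and SRSF2 peaks (right bar) in 5 kb windows along Dync1h1, the last window reaching to 65.3 kb. The dark part of a bar counts the peaks overlapped by the other protein. The window at 25 to 30 kb is the fullest for both, with 16 and 23 peaks.

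The longest stretch without a peak of either protein came near the 5′ end. It ran for 12368 nt, from 111840034 to 111852401 on chromosome 12 (0.32 to 12.7 kb). The next longest were 2960 nt (111881484 to 111884443, at 41.8 to 44.7 kb) and 2913 nt (111859863 to 111862775, at 20.1 to 23.1 kb). The first stretch thus stood apart from the others, which went down to 1571 nt at the tenth longest. The authors' peak numbers run along the RNA with some numbers missing, so some peaks were numbered but not listed. SRSF1 peaks 1 and 2 stand on either side of the long stretch with no number between them, while for SRSF2 number 6 is missing there. In the whole gene, 25 of 101 SRSF1 numbers and 38 of 154 SRSF2 numbers were missing, or 24.8% and 24.7%. In GENCODE M21, an annotation of another build (GRCm38), the coding transcript has 77 exons with a median length of 166 nt, which make up 21.9% of the 65494 nt gene, and its longest intron is the first, of 10490 nt. No exon or intron was placed on the mm9 peaks, so the overlap of the empty stretch with that intron was not tested.

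Peaks were short. The median SRSF1 peak was 21.5 nt wide (6 to 55) and the median SRSF2 peak 18 nt (6 to 58), where both whole lists had 19 nt. Together they covered 2998 nt, 4.59% of the span. SRSF1 peaks covered 1686 nt and SRSF2 peaks 2182 nt, and 870 nt were covered by both, which is 51.6% of the SRSF1 bases and 39.9% of the SRSF2 bases. The shared bases are the same in both shares, which differ only because SRSF2 peaks covered more.

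SRSF1 peaks on Dync1h1 lay on an SRSF2 peak in most cases, and SRSF2 peaks on an SRSF1 peak in a smaller share. The overlapped peaks were nearly equal in number, 51 and 53. The smaller share therefore restates that SRSF2 had more peaks in the gene (116, against 76). Peaks count as overlapping when they share 1 nt or more of the same strand. Of the 76 SRSF1 peaks, 51 were overlapped by SRSF2 (67.1%, 55.4 to 77.5), where the share of all listed SRSF1 peaks was 38.7%. Of the 116 SRSF2 peaks, 53 were overlapped by SRSF1 (45.7%, 36.4 to 55.2), where the share of all SRSF2 peaks was 35.2%. Both intervals lie above the share of the whole list, and peaks of 1 gene are not independent.

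Scores move with that comparison. The authors' score, a whole number that the sources used here do not explain, had a floor in Dync1h1 of 9 for SRSF1 and 11 for SRSF2. The floor differed between genes: in the 53 other named genes with at least 40 peaks it ran from 4 to 18 for SRSF1 (median 6) and from 4 to 20 for SRSF2 (median 7). Scores may therefore not be comparable between genes. The whole lists start at 4, with a median of 8, so that every Dync1h1 peak scored above the median of its list. The listed peaks with a score of at least 9 (SRSF1) or 11 (SRSF2) were overlapped in 55.2% of cases in both lists. Against these, the SRSF1 share of 67.1% was higher, with an interval that starts just above 55.2%. Among the upper 50% of the Dync1h1 peaks of each protein by score it was 50% (33.8 to 66.2). That setting also took away SRSF2 peaks and left 58 as possible partners. Its value is therefore not set beside 55.2%, which counts all listed SRSF2 peaks as partners. The SRSF2 share of 45.7% was lower than 55.2%, with an interval that ends at that value. The SRSF2 comparison thus changes direction with the listed peaks that are compared, while the SRSF1 share was above both list values. The score minimum was chosen after the data were seen. In peaks of genes with a symbol the shares were 37.2% for SRSF1 and 33.5% for SRSF2.

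Among the 53 other genes with a symbol and at least 40 peaks, Dync1h1 stood within the range for overlap. Its 2.94 peaks per kb of listed span were exceeded by 3 of these genes, which ran from 0.142 to 6.87 with a median of 0.957; the gene was picked for its number of peaks, so this is a description. Its share of SRSF1 peaks overlapped was exceeded by 10 (median 54.5%, range 24.1 to 90%), and its share of SRSF2 peaks overlapped by 32 (median 50%, range 19.4 to 82.6%). The SRSF1 part of its peaks was low among them, with 47 of the 53 above its 39.6% (median 47.2%). Its median scores were 12 for SRSF1 and 13.5 for SRSF2, where the medians of the other genes had a middle value of 8 and 9, and its floors of 9 and 11 were above the middle floors of 6 and 7. Whether the scores or the density play a part in the overlap was not tested.

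**Figure D3:**
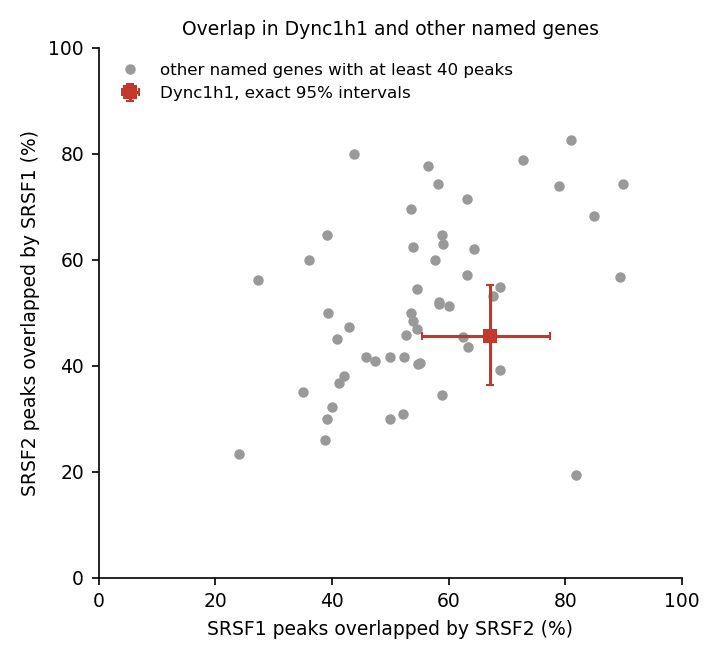
Share of SRSF1 peaks overlapped by SRSF2 (x axis, percent) and of SRSF2 peaks overlapped by SRSF1 (y axis, percent) in Dync1h1 (square, with exact 95% intervals) and in the 53 other named genes with at least 40 peaks (points). Dync1h1 lies at 67.1% and 45.7%, inside the cloud.

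The genes most like Dync1h1 in 3 shares (the SRSF1 part of the peaks and the share of each protein's peaks overlapped) were Lars, a leucyl-tRNA synthetase, Kntc1, a kinetochore protein, Usp32, a ubiquitin protease, Adam10, a membrane metalloprotease, and Lamc1, a laminin chain. Likeness was the mean absolute difference over the 3 shares, which came to 2.45, 3.26, 3.48, 3.76 and 4.82 percentage points for these genes in that order. In Lars, 62.5% of 24 SRSF1 peaks and 45.5% of 33 SRSF2 peaks were overlapped, and in Kntc1 63.3% of 30 and 43.6% of 39. The numbers of SRSF1 and SRSF2 peaks were 34 and 47 in Usp32, 16 and 28 in Adam10, and 33 and 49 in Lamc1. They had fewer peaks per kb than Dync1h1, from 0.436 in Adam10 to 1.02 in Kntc1. Only 3 of the 53 other genes had more than Dync1h1, which was picked for its number of peaks, so this is a description.

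Overlapping peaks were nearly centred on each other. The 51 SRSF1 and 53 SRSF2 peaks made 53 pairs, since 2 SRSF1 peaks each met 2 SRSF2 peaks. The midpoints of a pair were a median of 3 nt apart and at most 26.5 nt, and 43 of the 53 pairs (81.1%) had midpoints within 10 nt. Short peaks that share a base must have near midpoints, so part of this follows from how the pairs were chosen. The same values for overlapping pairs of the whole lists are not given here. The SRSF1 midpoint was upstream in 27 pairs, downstream in 23 and at the same place in 3. No pair had identical ends, and a median of 16 nt was shared.

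Pairs were ranked by the smaller of their scores. The floors differ between the lists, so the SRSF1 score decides the rank in most pairs, and the first 5 are a description. The first lay at 40.5 kb, with an SRSF1 peak at 111880248 to 111880283 (score 26, the highest SRSF1 score in the gene) and an SRSF2 peak at 111880248 to 111880279 (score 22). They began at the same base. The second and the third followed side by side at 20 kb. In one, SRSF1 at 111859778 to 111859807 scored 21 and SRSF2 at 111859781 to 111859838 scored 29, and in the other SRSF1 at 111859736 to 111859759 scored 19 and SRSF2 at 111859737 to 111859759 scored 25. Together they form a compact site that both proteins scored high. Another, at 30.1 kb, had SRSF1 at 111869835 to 111869875 with a score of 19 and SRSF2 at 111869847 to 111869881 with 18. The last, at 14.9 kb, had SRSF1 at 111854586 to 111854640 with 17 and SRSF2 at 111854614 to 111854641 with 25. Its SRSF1 peak is the widest SRSF1 peak of the gene, at 55 nt, and the SRSF2 peak at 20 kb that scored 29 is the widest SRSF2 peak, at 58 nt.

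The strongest peaks of one protein were not always the strongest of the other. The SRSF1 peak with the second highest score, 22, at 111875759 to 111875809 (36.1 kb), met an SRSF2 peak of score 12. The highest SRSF2 score in the gene, 30, at 111855957 to 111855982 (16.3 kb), belonged to a peak that met an SRSF1 peak of score 11. The third highest SRSF2 score, 27, at 111886574 to 111886602 (46.9 kb), met an SRSF1 score of 16. After these, 5 SRSF2 peaks tied at a score of 25, of which 4 were overlapped, by SRSF1 peaks with scores of 13 to 19. The fifth, at 111852671 to 111852703 (13 kb), was not overlapped, though an SRSF1 midpoint lay 68 nt away. The top 5 SRSF1 peaks, with scores of 19 to 26, were all overlapped. Across the 53 pairs the scores had a Spearman rho of 0.35, given as a description because peaks are not replicates. SRSF2 had the higher score in 35 pairs, SRSF1 in 11, and 7 were equal, but the floor of the scores was also higher for SRSF2 (11, against 9), so raw scores are not on a common scale.

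**Figure D4:**
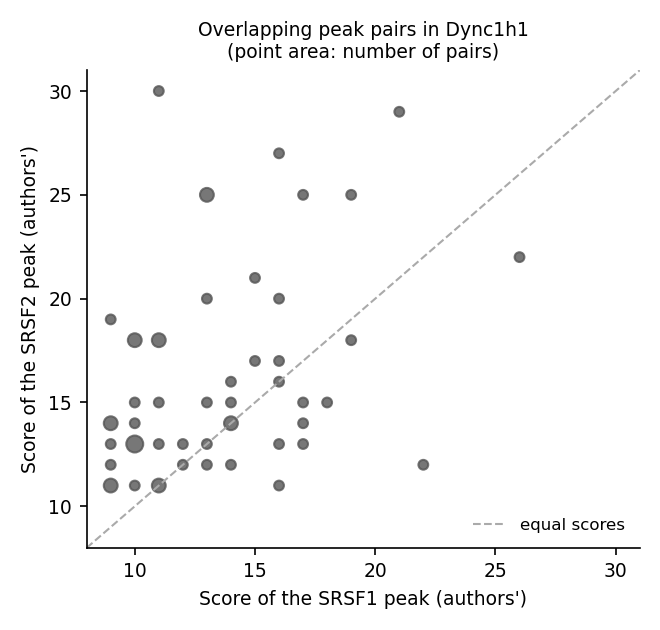
The authors' score of the SRSF1 peak (x axis) and of the SRSF2 peak (y axis) in each of the 53 overlapping pairs of Dync1h1, with larger points where several pairs have the same scores and a dashed line of equal scores. More points lie above the line (35 pairs) than below it (11), and the pairs scatter widely around it.

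Peaks with high scores were overlapped more often than peaks with low ones, within the gene as well. SRSF1 peaks with a score of 16 or more were overlapped in 15 of 16 cases (93.8%, 69.8 to 99.8), and those with a score of 10 or less in 15 of 26 (57.7%, 36.9 to 76.6). SRSF2 peaks with a score of 16 or more were overlapped in 21 of 30 cases (70%, 50.6 to 85.3), and those with a score of 11 to 12 in 11 of 42 (26.2%, 13.9 to 42.0). Width moves with score: the high classes had a median width of 34.5 nt for SRSF1 and 26 nt for SRSF2, and the low classes 9.5 nt and 11 nt. The rho of score and width was 0.88 for SRSF1 and 0.81 for SRSF2. Wide peaks can meet a partner more readily than narrow ones, and the part of width was not tested.

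The overlap also varied along the RNA. In the second of the 4 segments, 28 of 33 SRSF1 peaks (84.8%, 68.1 to 94.9) and 29 of 50 SRSF2 peaks (58%, 43.2 to 71.8) were overlapped. In the last segment, toward the 3′ end, it was 9 of 20 SRSF1 peaks (45%, 23.1 to 68.5) and 9 of 29 SRSF2 peaks (31%, 15.3 to 50.8). The third segment lay between them, with 10 of 17 SRSF1 and 11 of 25 SRSF2 peaks, and the first had 4 of 6 and 4 of 12. The SRSF1 part of the peaks was 39.8%, 40.5% and 40.8% in the second, the third and the last segment. In the first, with few peaks, it was 33.3% (13.3 to 59.0). The second and the last segment, which differed in overlap, thus had similar values, though with wide intervals (29.2 to 51.1 and 27.0 to 55.8). Median scores were 13 for SRSF1 and 14 for SRSF2 in the second segment and 10.5 and 13 in the last, and median widths 25 and 20 nt in the second and 17.5 and 14 nt in the last. The part of score and width in this pattern was not tested.

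Over all peaks of the gene, overlapped ones included, the proteins lay close together. The median distance from an SRSF1 midpoint to the nearest SRSF2 midpoint was 6.5 nt (exact 95% interval 3 to 14.5), where it was 57.5 nt for all SRSF1 peaks. From SRSF2 to the nearest SRSF1 midpoint it was 24.75 nt (11.5 to 39), where it was 78.5 nt for all SRSF2 peaks. Peaks of the same protein do not overlap each other, so their distances are not set beside these. The nearest other SRSF1 midpoint of an SRSF1 peak lay at a median of 77.5 nt, and the nearest other SRSF2 midpoint of an SRSF2 peak at 48.5 nt. Within 50 nt there was an SRSF2 midpoint for 66 SRSF1 peaks (86.8%, 77.1 to 93.5) and an SRSF1 midpoint for 75 SRSF2 peaks (64.7%, 55.2 to 73.3), where the whole lists had 48.6% and 45.5%. Among listed peaks with the score floor of Dync1h1 or more, the shares within 50 nt were 64.1% and 64.5%, so that the SRSF2 interval of Dync1h1 included the value of such peaks while the SRSF1 interval lay above it. Among the upper 50% of the Dync1h1 peaks of each protein by score, the SRSF1 share within 50 nt was 62.5%. That value counts only the SRSF2 peaks left by this setting. The 64.1% counts all listed SRSF2 peaks, so the values are not compared. Within 500 nt the shares reached 97.4% for SRSF1 and 91.4% for SRSF2, where the whole lists had 64.4% and 62.5%. The median distances and the shares within 500 nt have no value for listed peaks of like score beside them. Peaks were dense in the gene, which was picked for their number, and the part of density was not tested. SRSF2 had more peaks in the gene, so the differences between the proteins in distance and in these shares are not separate from the numbers of peaks.

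Most peaks without an overlap had the other protein within 100 nt. Of the 63 SRSF2 peaks without an overlap, 40 had an SRSF1 midpoint within 100 nt (63.5%, 50.4 to 75.3), where the share was 26% of all SRSF2 peaks without an overlap and 34.6% of those with a score of at least 11. Of the 25 such SRSF1 peaks, 17 had an SRSF2 midpoint within 100 nt (68%, 46.5 to 85.0), where the share was 26.1% of all and 32.8% of those with a score of at least 9. Both intervals lie above these values. Peaks were dense in the gene, and the part of density in this was not tested. Within 50 nt there were 22 of the 63 SRSF2 peaks (34.9%, 23.3 to 48.0) and 15 of the 25 SRSF1 peaks (60%, 38.7 to 78.9), where the lists had 15.9% and 16.2%. Most SRSF2 peaks without an overlap were therefore more than 50 nt from SRSF1. Of the 40 SRSF2 peaks, 29 also lay within 100 nt of another SRSF2 peak that was itself overlapped (72.5%, 56.1 to 85.4), an interval that includes the 64.3% of listed peaks with a score of at least 11 and lies above the 54.3% of all listed peaks. The 40 peaks were downstream of the nearest SRSF1 midpoint in 26 cases and upstream in 14. Such neighbours are not independent, and the difference was not tested. Of the 17 SRSF1 peaks, 9 lay within 100 nt of another SRSF1 peak that was overlapped (52.9%, 27.8 to 77.0), where listed peaks had 49.1%, and those with a score of at least 9 had 56.5%. The 17 were downstream of SRSF2 in 8 cases and upstream in 9. The median spacing of neighbouring peaks was 316 nt for the 76 SRSF1 peaks and 115 nt for the 116 SRSF2 peaks. With peaks within 10 nt of each other merged, it was 450.8 nt for SRSF1 and 227.5 nt for SRSF2. More peaks in the same span give a shorter spacing, so this difference is not separate from the numbers of peaks.

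Joining every peak to the next when midpoints were at most 100 nt apart gave 64 groups along the RNA, whose starts were a median of 604 nt apart. Both proteins were in 43 groups, which held 69 SRSF1 and 94 SRSF2 peaks, or 84.9% of all peaks of the gene. No such share over the whole lists is given here, and peaks were dense in the gene, so this is a description. SRSF2 peaks outnumbered SRSF1 peaks in 24 of the 43 groups, SRSF1 peaks were more in 6, and the numbers were equal in 13. Groups of SRSF1 alone numbered 5 and groups of SRSF2 alone 16. The groups of both proteins had a median length of 85 nt. The longest, 344 nt from 111855849 to 111856192 at 16.1 to 16.5 kb, held 5 peaks of each protein.

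The window at 16 to 17 kb (111855714 to 111856713) held 7 SRSF1 and 10 SRSF2 peaks, with 5 of each overlapped. Its SRSF1 scores stayed between 9 and 13, while its SRSF2 scores ran from 11 to 30. The windows at 24 to 25 kb (111863714 to 111864713) and at 28 to 29 kb (111867714 to 111868713) each held 4 SRSF1 and 6 SRSF2 peaks, with all 4 SRSF1 peaks and 4 of the SRSF2 peaks overlapped. A window near the 3′ end, at 64 to 65 kb, also held 10 peaks. The first 3 together had 19.3% of all peaks of the gene. Of the 65 windows of 1 kb, 35 held both proteins, 1 SRSF1 alone, 5 SRSF2 alone and 24 neither.

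**Figure D5:**
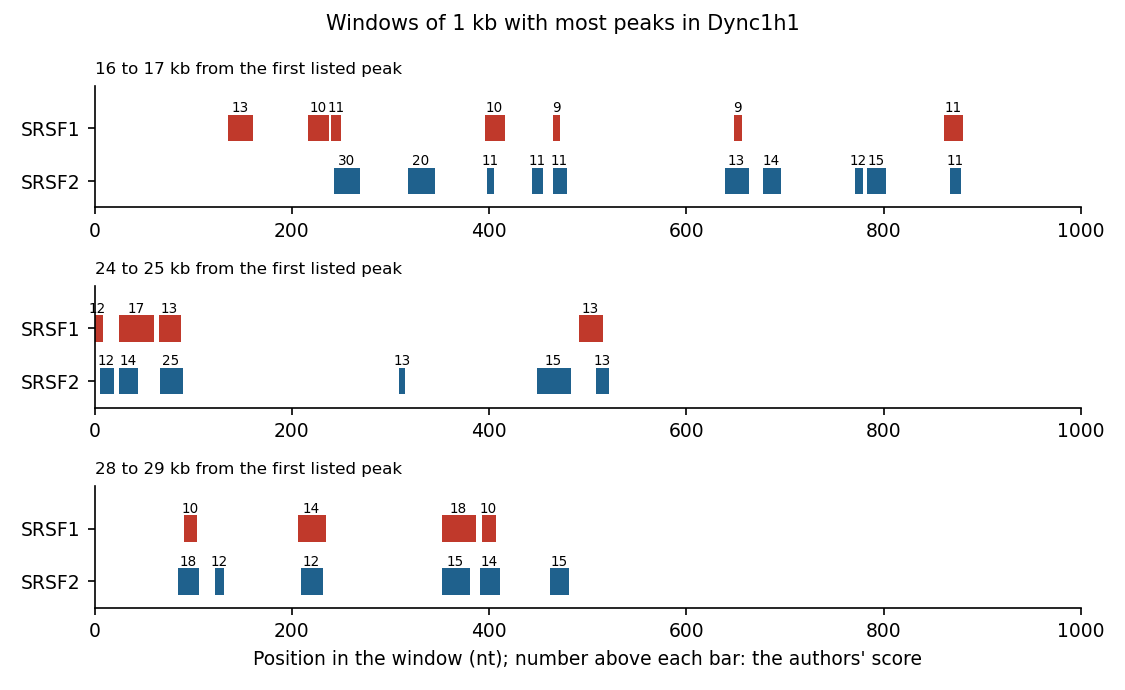
Listed peaks of SRSF1 (upper row) and SRSF2 (lower row) in the 3 windows of 1 kb with most peaks, drawn to scale in nt from the start of each window, with the authors' score above each bar. All 4 SRSF1 peaks in the lower windows sit on an SRSF2 peak, while SRSF2 has further peaks that meet no SRSF1 peak.

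With no SRSF2 midpoint within 100 nt there were 8 SRSF1 peaks, 10.5% of those in the gene, where the share was 45.3% of the whole list. That list was not limited to peaks of like score. Peaks were dense in the gene, which was picked for their number, and the part of score and density was not tested. The highest scores among the 8 peaks were 16 at 111896896 to 111896929 (57.2 kb, with the nearest SRSF2 midpoint 235 nt away) and 14 at 111871049 to 111871079 (31.3 kb, 1167 nt away). The second is the SRSF1 peak farthest from any SRSF2 peak. However, 4 SRSF2 numbers are missing in the stretch around it, between SRSF2 peaks 72 and 77, so SRSF2 peaks that had been numbered but not listed may lie nearby. Then came 13 at 111855849 to 111855874 (16.1 kb, 108 nt away), 13 at 111866973 to 111867004 (27.3 kb, 252.5 nt away) and 12 at 111893064 to 111893096 (53.4 kb, 538 nt away). Only the peaks at 16.1 and 27.3 kb stood between SRSF2 peaks with consecutive numbers, where no numbered SRSF2 peak was left out. The remaining 3 peaks, each with a score of 9, lay side by side at 50.6 to 50.7 kb, again in a stretch with missing SRSF2 numbers.

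Sites of SRSF2 without SRSF1 were more numerous, in a gene with more SRSF2 than SRSF1 peaks (116, against 76). There were 23, or 19.8% of the SRSF2 peaks of the gene, where the share was 47.9% of the whole list, and 13 of them stood between SRSF1 peaks with consecutive numbers. Here too the list was not limited to peaks of like score, and the part of score and density was not tested. The highest score was 20 at 111853099 to 111853134 (13.4 kb), where the nearest SRSF1 midpoint was 497.5 nt away and no SRSF1 number was missing around it. A score of 17 was given to the peak at 111856827 to 111856846 (17.1 kb, 252 nt away, no number missing) and to that at 111888002 to 111888030 (48.3 kb, 562.5 nt away, SRSF1 numbers missing). Next came 15 at 111894537 to 111894555 (54.8 kb, 730.5 nt away, no number missing). Then 5 peaks tied at 14, the first of them at 111854912 to 111854935 (15.2 kb, 310.5 nt away, no number missing). None of these sites without the other protein reached the highest scores of the gene, 26 for SRSF1 and 30 for SRSF2. Their median scores were 12.5 for SRSF1 and 13 for SRSF2, near the 12 and 13.5 of all peaks of the gene. The SRSF2 peak farthest from SRSF1 lay at 111862776 to 111862788 (23.1 kb), 882.5 nt away, with a score of 13 and 1 missing SRSF1 number around it.

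Of 44 genes for the subunits and partners of dynein, 8 had a peak under their own name, or 7 without Dync1h1, which was picked for its peaks. Over both lists 2155 genes with a symbol had such a peak. The number of all gene symbols is not given here, so the count of 8 is a description. The remaining 36 had no peak under a named transcript; since few of the listed peaks carry a gene name, this says nothing on whether they were bound. Apart from the heavy chain, most of the peaks were in genes of dynactin, the complex that activates dynein, and of an adaptor. Dctn2, the dynactin subunit dynamitin, had 9 SRSF1 and 11 SRSF2 peaks, of which 6 of each were overlapped. Bicd2, an adaptor that joins dynein and dynactin to cargo, had 6 and 20 peaks, of which 5 of each were overlapped, and an SRSF1 share of 23.1% (8.97 to 43.6). The actin-related proteins of the dynactin filament followed, with 5 and 3 peaks in Actr1a and 3 and 7 in Actr1b. The light chain genes Dynlt1b and Dynlt3 had 1 of each protein and 1 SRSF1 peak. Dync2li1, of the dynein that moves cargo within cilia, had 1 SRSF2 peak. Without Dync1h1, SRSF1 had 25 peaks in these genes and SRSF2 had 43, so that SRSF1 made up 36.8% (25.4 to 49.3). The interval of the 36.8% includes the 47.5% of all peaks. Overlapped were 13 of the 25 SRSF1 peaks (52%) and 14 of the 43 SRSF2 peaks (32.6%), where the whole lists had 38.7% and 35.2%. Most of the overlapped peaks were in Dctn2 and Bicd2. The counts are small and these 2 overlap shares have no interval here, so they are a description.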

How the data were processed

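The authors deposited 1 peak list for each of 2 samples, in BED format. The build is mm9 per the submitters' processing notes, and positions are printed 1-based. The score deposited with each peak is a whole number of 4 or more; the sources used here do not give what it measures, the aligner, the caller or its cutoff, the read depth, or whether replicates were pooled. A RefSeq table of GRCm38.p6 served for gene symbols only. No mm9 genome or annotation was used, so no sequence, motif, exon or splice site was assigned to a peak. The members, lists and rules were chosen with earlier results of these data known. Named sites follow fixed rules (highest scores, highest smaller score of a pair, highest scores without the other protein, fullest windows, longest gaps). The group of peaks that is longest, the farthest peaks and the widest peaks were named after their values were seen. Distances are between midpoints, and windows count midpoints. The overlap function gave the same counts as bedtools 2.31.1 and was tested on simulated data. Intervals are exact (Clopper-Pearson, and order statistics for medians), from scipy 1.17.1.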

Additional observations from a re-analysis of the deposited data

How the results depend on the processing

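Of 48 alternative values for 14 results, 32 stayed within the interval of the reported value (for counts within 1.5 times, for rho within 0.1), and 16 did not. The overlapped shares, for SRSF1 and for SRSF2, were 86.8% and 64.7% for midpoints within 50 nt, and 84.2% and 62.9% with every peak set to 50 nt, which are wider definitions. In the upper 50% of the Dync1h1 peaks by score, which removes possible partners, 50% of SRSF1 peaks were overlapped. The 55.2% of listed peaks with a score of at least 9 counts all listed partners, so the 50% is not set beside it. In the same setting the shares within 50 nt fell to 62.5% for SRSF1 and 46.6% for SRSF2. The median distances grew to 24.25 nt and 67.5 nt. The upper 50% of each whole list changed nothing in the gene, because every Dync1h1 peak was in it. A limit of 100 nt put 80.2% of SRSF2 peaks near SRSF1. Between nearest ends the median distance was 0 nt for SRSF1 and 7.5 nt for SRSF2. Peaks without the other protein numbered 2 for SRSF1 with a limit of 500 nt, and 41 and 10 for SRSF2 with limits of 50 and 500 nt. The rho of peak numbers was 1 in 6 windows of 10 kb. Merging peaks within 10 nt left 67 SRSF1 and 96 SRSF2 peaks. The shares and distances stayed within their intervals, as did the spacing, although it was 227.5 nt for SRSF2 in place of 115 nt. Merging was not run for the rhos, the dynein genes or the peaks without the other protein. No paired analysis was possible because 1 library of each protein was analysed.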
